A study of Homo sapiens with 6 samples.

Results

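The ATP-binding cassette (ABC) transporter genes other than ABCG2 were measured in a pair of breast cancer lines, pLUM and pLB. Members were the gene spots whose array symbol was ABC followed by a subfamily letter from A to G and a number, ABCG2 apart. This rule gave 45 genes with 70 probes, of 25940 named genes and 34127 gene probes on the array. Subfamilies A and C had 12 genes each, B had 9, D and G had 4 each, F had 3, and E had 1.

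pLUM and pLB are lines of luminal and luminobasal cells from xenografts of T47Dco, a subline of T47D, which is the parental line the labels give and an established human luminal breast cancer line that carries estrogen and progesterone receptors. Each line came from cells of 1 tumor and was purified by sorting on claudin 3 and CD49f, pLUM from a tumor grown with estradiol (E) after culture for about 2 and then 2 months in E, and pLB from a tumor grown with E and progesterone after about 2.5 and then 2 months of estrogen withdrawal (EWD). All cells were grown in medium with 5% charcoal-stripped serum. Before they were sorted for the arrays, pLUM cells received 1 nM E for 72 h and pLB cells stayed in EWD, so that line and E cannot be told apart on any array. RNA from triplicate sorts of fixed, CK5-stained cells was hybridized, and the sources used here do not state which CK5 fraction was on the arrays. The comparison asked how the transcripts of this family differed between the 3 pLB and the 3 pLUM arrays.

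ABC proteins bind and hydrolyse ATP at a pair of conserved cassettes, and most use it to move a substrate across a membrane. Substrates range from cholesterol and phospholipids (many members of A and G) to drugs and their glutathione, glucuronide or sulfate conjugates (B and C), fatty acyl chains of peroxisomes (D) and haem or iron-sulfur precursors of mitochondria (part of B). Members of E and F have the cassettes but no membrane domain and act at the ribosome. In breast cancer the family is known mostly for the export of chemotherapeutic drugs.

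Signals are given as log2 of the spot intensity relative to the 75th percentile of its array, so that 0 is the level that 3 in 4 gene spots of that array lie below. They compare arrays for the same probe and do not rank different probes. A probe was tested where it was well above background on at least 3 arrays, and a call of higher or lower needed 2-fold and, in limma, an adjusted p below 0.05. Each gene was represented by its tested probe with the highest mean. The p-values measure the spread between these sorts of 1 line each. With so few arrays precision is low, and the smallest p that an exact two-sided permutation test could reach at 3 against 3 is 0.1.

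The results turn on the probes of the genes with the largest differences. Each probe has 60 bases, and its first 30 are printed, 5′ to 3′, as they stand in the deposited files.
ABCC1: gggtaaatattaaggagatggcctcatggg
ABCC4: cgagaagctagatcttaactggtacttagg
ABCG1: atttaaagctgcaacacagctggtgatgag
ABCB4: cagtgtccaggctgggacacagaacttatg
ABCC11: agtctgcgaccttcttgtttggagatgaga
ABCC12: agagaagccagattctgcatttgcgatgtt
ABCA4: tgcagcagaaaacaaacacacgaggagcat
ABCC6 NM_001171: tcatcgatagctccacacgatattgagtct
ABCC6 NM_001079528: gttcccccactggctgtattataggacaat
In hg19, as the files give it, the ABCC1 probe lies at chr16:16236024-16236083 (plus strand), that of ABCG1 at chr21:43716784-43716843 (plus), and that of ABCC4 at chr13:95813571-95815416 (minus), where its 60 bases are split by an intervening stretch. The ABCB4 probe lies at chr7:87031383-87031442, that of ABCA4 at chr1:94458621-94458680, that of ABCC11 at chr16:48201053-48201112 and that of ABCC12 at chr16:48117621-48117680, all on the minus strand. Both ABCC6 probes are also on the minus strand, at chr16:16243855-16243914 for NM_001171 and chr16:16315075-16315134 for NM_001079528. Exons and untranslated regions at these positions were not analysed here.

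On the arrays as a whole, Pearson's r across tested probes was 0.984 to 0.991 between pLUM arrays, 0.972 to 0.989 between pLB arrays and 0.780 to 0.806 between lines. The 3 pLUM arrays and pLB replicate 1 were on slide 1 and the other pLB arrays were on slide 2. The 5 luminobasal markers examined, KRT5 among them, were called higher in pLB and the 6 luminal markers lower. Among these ITGA6 and CLDN3 encode the proteins by which the lines were purified, and KRT5 encodes CK5, on which cells were sorted for the arrays. Of 6 fibroblast markers 4 were well above background on no array, COL1A1 had no call, and COL1A2 was at least 11.5-fold higher in pLB. None of 4 leukocyte markers was called, and of 3 endothelial markers VWF was at least 1.80-fold higher in pLB whereas PECAM1 was well above background on no array. The part of these markers in the results was not tested.

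More ABC genes were lower in pLB than were higher. Of the 35 genes tested, 15 were lower (42.9%), 3 were higher (8.57%) and 17 had no call. Over all 17670 genes tested, 23% were lower and 22.7% were higher. The 3 higher genes were ABCC1, ABCC4 and ABCG1, and the lower genes included ABCA2, ABCA3, ABCA4, ABCA5, ABCA7, ABCA12, ABCB4, ABCB10, ABCC2, ABCC6, ABCC8, ABCC11, ABCC12 and ABCF3. The median log2 difference, pLB minus pLUM, was -0.73 over the tested ABC genes and 0.04 over all tested genes. In total 12 of the ABC genes had a positive and 23 a negative difference. The arrays of the lines did not overlap for 26 ABC genes (74.3%), against 69.1% of all genes. All pLB arrays lay above all pLUM arrays for 6 of them and below for 20, where the shares over all genes were 35.7% and 33.4%. By single probes 5 of 53 ABC probes were higher and 23 were lower, against 21.9% and 23.7% of all 23105 probes tested. In these bulk samples fewer cells that carry a transcript and less of it per cell cannot be told apart.

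**Figure D1:**
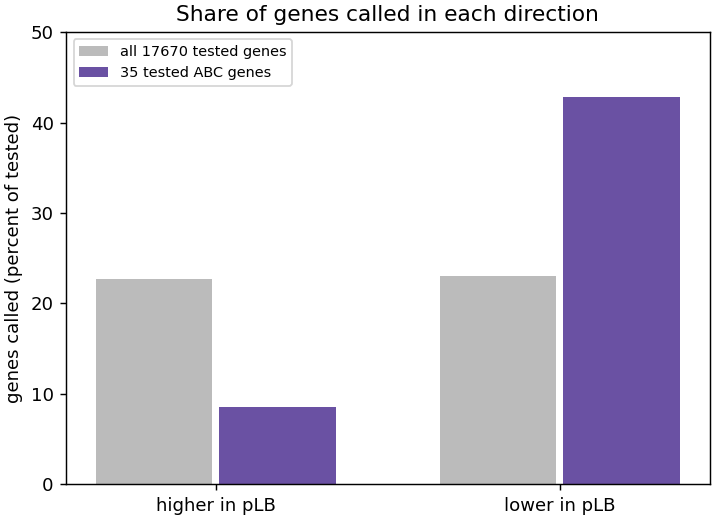
Bars give the percent of tested genes called higher or lower in pLB (2-fold and adjusted p under 0.05) among all 17670 tested genes (grey) and the 35 tested ABC genes (purple). The grey bars are at 22.7% and 23%, and the purple bars at 8.57% and 42.9%.

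The other 10 genes were well above background on no array and were not tested. These were ABCA6, ABCA8, ABCB1, ABCB5, ABCB11, ABCC9, ABCC13, ABCD2, ABCG5 and ABCG8, with 16 probes between them. ABCB1, which encodes the multidrug exporter P-glycoprotein, was among them with both of its probes, and their signals ran from -7.72 to -6.70 over the 6 arrays. ABCB5 had 3 such probes. ABCB11, the bile salt export pump of hepatocytes, and the ABCG5 and ABCG8 genes, whose products together export plant sterols, were likewise not well above background. ABCC13 is listed as a pseudogene by RefSeq. For these genes the arrays give only a bound in both lines and no fold.

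**Figure D2:**
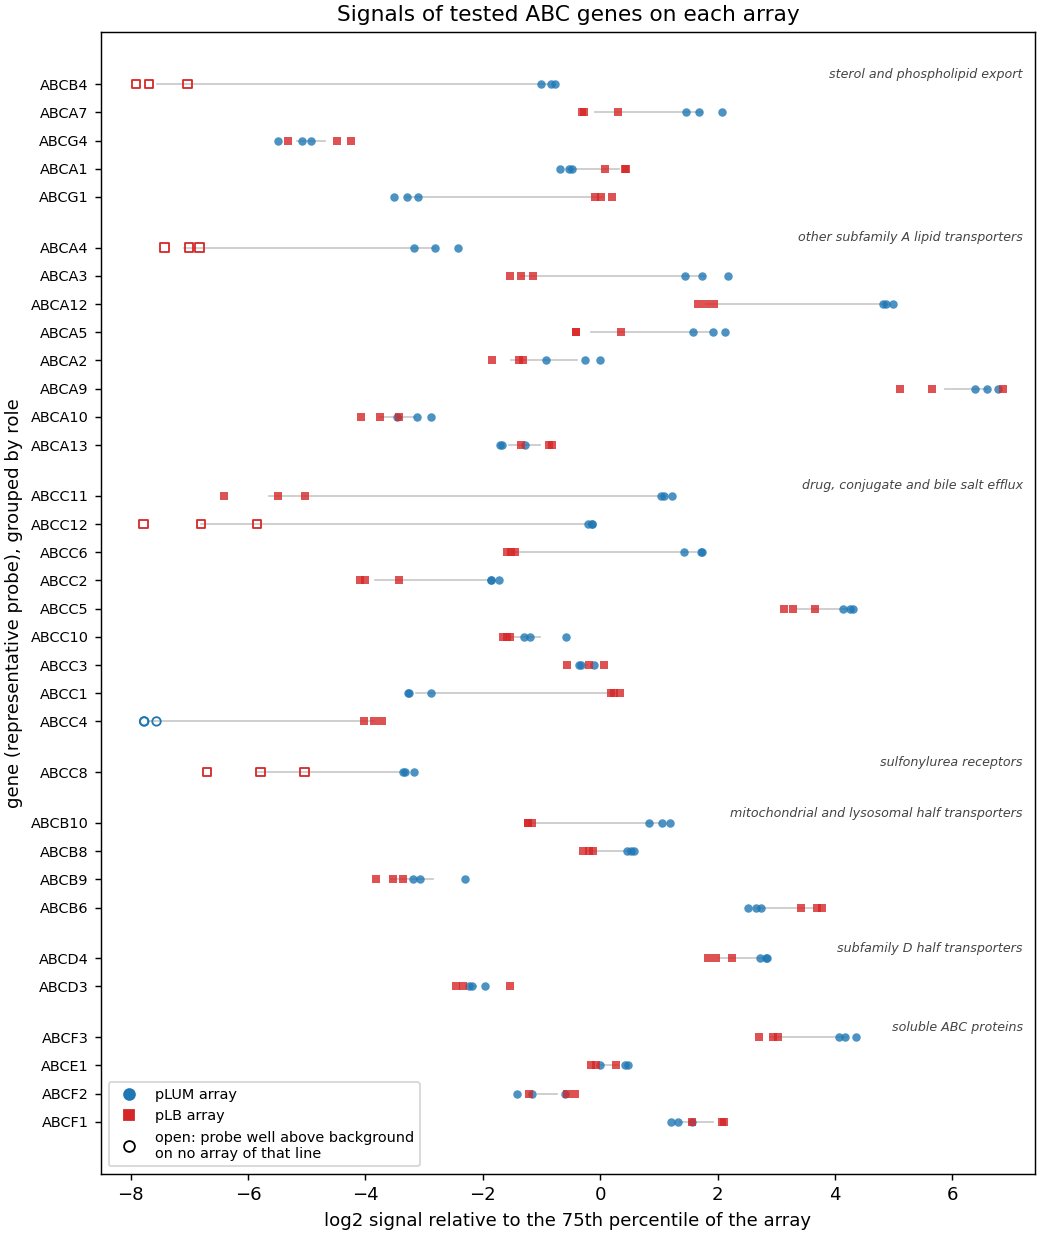
Each row is the representative probe of 1 tested ABC gene named in the text and each symbol is 1 array (circles, pLUM; squares, pLB; 3 each), on a log2 scale relative to the 75th percentile of the array, with a grey line between the means of the lines. Open symbols mark a line with no array well above background. The wide gaps are those of ABCB4, ABCC11, ABCC12 and ABCA4, with pLB at the left, and of ABCC1, ABCG1 and ABCC4, with pLB at the right.

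Among the genes of sterol and phospholipid export, 5 of 7 were tested, of which ABCG1 was higher, ABCA7 and ABCB4 were lower, and ABCA1 and ABCG4 had no call. For this and each later group, the shares over all tested genes were 22.7% higher and 23% lower. ABCG1, which hands cholesterol to high-density lipoprotein, read -3.29, -3.52 and -3.11 on the pLUM arrays and 0.20, 0.01 and -0.09 on the pLB arrays. The pLB arrays were all higher by a margin far wider than the spread within either line. ABCG1 was thus 10.2-fold higher in pLB, with a log2 difference of 3.35 ± 0.18 (SE, n = 3 and 3, adjusted p = 6.1e-06 in limma). Its close relative ABCG4 read -5.49 to -4.93 in pLUM and -5.32 to -4.25 in pLB, was well above background on 2 arrays of each line, and overlapped between them (adjusted p = 0.21).

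ABCA1, the exporter that loads lipid onto apolipoprotein A1, read -0.53, -0.48 and -0.68 in pLUM and 0.44, 0.43 and 0.09 in pLB. The groups did not overlap, but the 1.84-fold difference fell short of the 2-fold threshold (adjusted p = 0.0033 in limma). A second ABCA1 probe, toward the 5′ end, passed it at 2.61-fold higher in pLB (adjusted p = 0.0097 over all probes). ABCA1 was also called with the mean of its probes, at a log2 difference of 1.13.

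ABCB4, the phosphatidylcholine translocator of bile canaliculi, moved the other way. It read -0.83, -0.77 and -1.004 in pLUM and -7.69, -7.91 and -7.03 in pLB, where it was well above background on no array. Where a line had no array well above background, the fold is given as a bound. For each dim array it takes the signal of the probe or the lowest signal that passed as well above background there, whichever is larger, and sets the mean of these against that of the bright line. On this rule ABCB4 was at least 21.5-fold lower in pLB (adjusted p = 1.2e-06 in limma). Such bounds hold for the background correction of the reported signals alone. The lowest passing signal is also not a detection limit for every probe. On pLUM replicate 2 it was -5.43, and the probe of SLCO1A2 read -5.13 there without being well above background. The adjusted p beside a bound is that of the limma fit to the signals without the bound. ABCA7, a relative of ABCA1 that moves phospholipid, read 1.69, 1.47 and 2.07 in pLUM and -0.31, -0.27 and 0.30 in pLB. The groups were well apart, and ABCA7 was 3.57-fold lower (adjusted p = 0.00046 in limma).

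The remaining members of subfamily A carry other lipids, and 8 of 10 were tested. None was higher and 5 were lower, where the shares over all genes were 22.7% and 23%. The median log2 difference of these 8 was -1.58. ABCA12, which loads glucosylceramide into the lamellar granules of keratinocytes, read 4.87, 4.82 and 4.99 in pLUM and 1.93, 1.80 and 1.67 in pLB. It was clearly detected in both lines and was 8.54-fold lower in pLB, with a log2 difference of -3.09 ± 0.16 (SE, adjusted p = 4.9e-06 in limma). ABCA3, the surfactant lipid transporter of lung lamellar bodies, read 1.73, 1.45 and 2.18 in pLUM and -1.14, -1.36 and -1.54 in pLB. Here too the arrays of the lines were far apart, at 8.76-fold lower in pLB (adjusted p = 2.5e-05).

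ABCA4, known as the retinoid flippase of photoreceptors, read -3.18, -2.82 and -2.42 in pLUM and -6.82, -7.42 and -7.00 in pLB, where no array was well above background, which puts it at least 5.60-fold lower (adjusted p = 9.2e-06 in limma). ABCA5, a transporter of endosomes and lysosomes, read 2.13, 1.92 and 1.58 in pLUM and -0.41, -0.42 and 0.35 in pLB, a 4.10-fold decrease (adjusted p = 0.00044). Neither gene overlapped between the lines.

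ABCA2, an endolysosomal transporter best known from brain, was the lower gene nearest the threshold. Its signals were -0.93, -0.26 and 0.00 in pLUM and -1.32, -1.39 and -1.84 in pLB, a 2.17-fold difference (adjusted p = 0.0097 in limma). pLUM replicate 1 lay closer to the pLB arrays than to its own group. Without pLUM replicate 3 the log2 difference was -0.92 and without pLB replicate 3 it was -0.96, in each case under 2-fold, and its other probe had no call.

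ABCA9, ABCA10 and ABCA13 had no call. ABCA9 varied widely within pLB, at 6.78, 6.39 and 6.58 in pLUM and 5.10, 5.65 and 6.86 in pLB. pLB replicate 3 was thus above every pLUM array while the other pLB arrays were below them (adjusted p = 0.18 in limma), and without it ABCA9 was called lower, at a log2 difference of -1.21. ABCA10 read -3.46 to -2.88 in pLUM and -4.07 to -3.43 in pLB, and its probe is also listed for the pseudogene ABCA11P. ABCA13 read -1.71 to -1.28 and -1.36 to -0.83. Both overlapped between the lines.

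Genes grouped under the efflux of drugs, conjugates and bile salts differed in both directions. The group also holds ABCC6, ABCC12 and the pseudogene ABCC13. Of its 13 genes 9 were tested, 2 were higher, 4 were lower, with ABCC6 and ABCC12 among these, and 3 had no call. Over all genes 22.7% were higher and 23% were lower. ABCC1, which encodes the multidrug resistance protein MRP1 and exports glutathione conjugates, read -3.27, -3.25 and -2.89 in pLUM and 0.33, 0.18 and 0.23 in pLB. Every pLB array was above every pLUM array, and ABCC1 was 10.4-fold higher in pLB, with a log2 difference of 3.38 ± 0.17 (SE, adjusted p = 4.9e-06 in limma). ABCC1 has a single probe on the array, as have the other higher genes, ABCC4 and ABCG1. The lower genes ABCA3, ABCA4, ABCA12, ABCB4, ABCC11 and ABCC12 also have a single probe each.

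ABCC4, or MRP4, an exporter of cyclic nucleotides and prostaglandins, read -7.56, -7.77 and -7.77 in pLUM, where no array measured it well above background, and -3.85, -4.02 and -3.71 in pLB. The bound put it at least 2.86-fold higher in pLB. In limma the adjusted p was 2.3e-06 without the bound and 0.00013 with the signals of the bound. The call was lost with normexp background correction, under which the log2 difference was 0.22 (adjusted p = 0.67). The sign stayed the same, and the call depended on the background correction.

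The neighbouring genes ABCC11 and ABCC12 were both lower in pLB. ABCC11, or MRP8, is known for secretion from apocrine glands, which include the breast, and read 1.09, 1.04 and 1.22 in pLUM and -5.49, -5.04 and -6.40 in pLB. It was well above background on 1 of 3 pLB arrays and fitted as 109-fold lower, with a log2 difference of -6.76 ± 0.34 (SE, adjusted p = 4.1e-06 in limma). ABCC12, of which less is known, read -0.21, -0.14 and -0.13 in pLUM and -5.84, -7.78 and -6.80 in pLB. None of the pLB arrays measured it well above background, and ABCC12 was at least 35-fold lower (adjusted p = 1.6e-05).

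Because these neighbours moved together, the 250 bases before the start of each are shown, from RefSeq on GRCh38.p14, both on the minus strand of chromosome 16, at chr16:48155994-48156243 for ABCC12 and chr16:48247540-48247789 for ABCC11.
ABCC12: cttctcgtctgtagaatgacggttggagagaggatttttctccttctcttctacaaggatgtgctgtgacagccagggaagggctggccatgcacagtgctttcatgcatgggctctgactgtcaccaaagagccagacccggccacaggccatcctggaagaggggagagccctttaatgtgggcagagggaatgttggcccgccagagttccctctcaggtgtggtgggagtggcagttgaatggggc
ABCC11: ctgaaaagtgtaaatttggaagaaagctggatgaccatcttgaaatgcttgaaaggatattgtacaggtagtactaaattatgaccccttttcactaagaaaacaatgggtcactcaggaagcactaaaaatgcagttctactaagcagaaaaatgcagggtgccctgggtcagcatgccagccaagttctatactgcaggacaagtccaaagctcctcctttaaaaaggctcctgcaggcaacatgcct
GC content was 56.4% for ABCC12 and 42.8% for ABCC11, against a median of 58% over all 35116 promoter entries. Neither stretch held any of the 5 motifs that are described with the promoters of the family, which says only that those letters are not in this window.

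ABCC6, whose protein in liver is linked to ATP release and to the prevention of soft tissue calcification, was lower by all 4 of its probes. Its representative probe read 1.73, 1.71 and 1.43 in pLUM and -1.58, -1.45 and -1.52 in pLB, or 8.84-fold lower (adjusted p = 5.1e-06 in limma). The NM_001171 probe, which was printed in 10 spots and lies nearer the 3′ end, read 1.03, 0.87 and 1.34 in pLUM and -4.69, -4.47 and -4.62 in pLB. It was 51.2-fold lower (adjusted p = 7.9e-07 over all probes). The other probes for NM_001079528 were 10.003-fold and 7.99-fold lower, and both are also listed for ABCC6P2, a pseudogene copy, so that their signal may hold transcripts of either.

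ABCC2, or MRP2, the conjugate pump of the apical membrane, read -1.86, -1.87 and -1.72 in pLUM and -4.09, -4.00 and -3.43 in pLB. The lines did not overlap and ABCC2 was 4.08-fold lower (adjusted p = 0.00015 in limma). A second ABCC2 probe was too dim on all arrays to be tested. ABCC1 and ABCC6, which lie next to each other on chromosome 16 in the RefSeq order of genes, were thus called in opposite directions.

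ABCC3, ABCC5 and ABCC10 had no call by their representative probes, but each had a further probe that was called. ABCC3, or MRP3, a basolateral exporter of glucuronides, had a probe pair that differed, whose first 30 bases were as follows.
ABCC3 NM_001144070: tcaggtgaccctgatcaccctctgggtgta
ABCC3 NM_003786: gtaactgtgctgaatgctttagatgaggaa
By the NM_003786 probe ABCC3 read -0.36, -0.32 and -0.11 in pLUM and -0.57, -0.19 and 0.06 in pLB, an overlap with a log2 difference of 0.04 (adjusted p = 0.89). By the NM_001144070 probe, which lies upstream, it read -2.48, -2.33 and -2.32 in pLUM and -1.34, -1.17 and -0.88 in pLB, or 2.38-fold higher (adjusted p = 0.00073 over all probes). All pLB arrays were above all pLUM arrays by this probe, and not by the other.

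ABCC5, or MRP5, an exporter of cyclic nucleotides, read 4.26, 4.14 and 4.30 in pLUM and 3.13, 3.28 and 3.66 in pLB by its representative probe. This was 1.83-fold lower with no overlap (adjusted p = 0.005 in limma), and without pLB replicate 3 it was called, at a log2 difference of -1.02. A NM_001023587 probe was 3.83-fold lower (adjusted p = 0.00013 over all probes) and another was 1.28-fold lower without a call. All 3 ABCC5 probes were below in pLB on every array. ABCC10, or MRP7, had log2 differences of -0.57, -0.37 and -1.23 by its probes, of which the last, for ENST00000443426, was called.

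**Figure D3:**
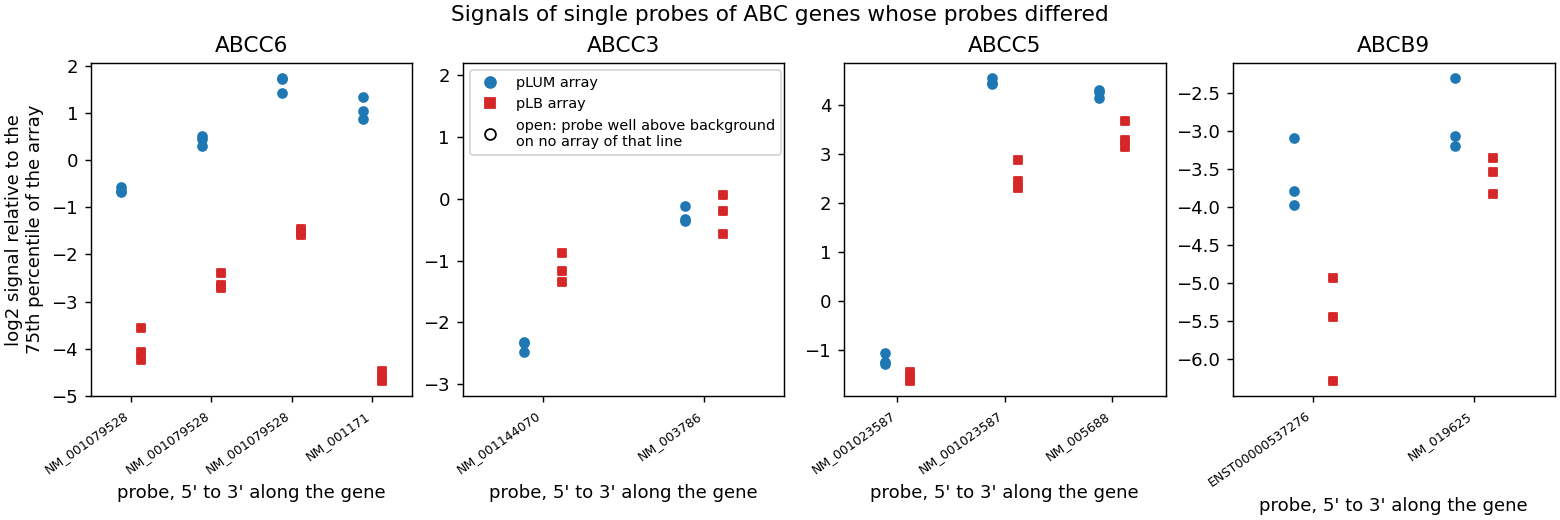
Log2 signals relative to the 75th percentile of the array are shown for each tested probe of ABCC6, ABCC3, ABCC5 and ABCB9, with the probes of a gene in 5′ to 3′ order and 3 arrays per line (circles, pLUM; squares, pLB; open where no array of that line was well above background). The gap of ABCC6 is widest at the NM_001171 probe, with a log2 difference of -5.68, and the ABCB9 probes have differences of -1.94 and -0.72.

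Of the sulfonylurea receptors, which are regulatory subunits of ATP-sensitive potassium channels, ABCC8 was tested and ABCC9 was not. ABCC8, the receptor of pancreatic beta cells, read -3.35, -3.17 and -3.33 in pLUM and -6.70, -5.78 and -5.04 in pLB, where no array was well above background. It was at least 4.03-fold lower in pLB (adjusted p = 0.0009 in limma). The channel pore genes KCNJ8 and KCNJ11 were not tested, since neither had a probe well above background on enough arrays.

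All 5 subfamily B transporters of mitochondria and lysosomes were tested, and by their representative probes ABCB10 alone was called. ABCB10, an inner mitochondrial membrane protein needed for haem synthesis in erythroid cells, read 1.05, 1.18 and 0.83 in pLUM and -1.17, -1.23 and -1.23 in pLB, or 4.70-fold lower (adjusted p = 2.5e-05 in limma). Its second probe was 4.99-fold lower, so that both of its probes gave a like value. The tight pLB values lay well below every pLUM value.

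ABCB6, a porphyrin transporter, read 2.52, 2.66 and 2.74 in pLUM and 3.77, 3.42 and 3.69 in pLB, and was 1.99-fold higher, just short of the threshold (adjusted p = 0.0017 in limma). It passed without pLUM replicate 3 or without pLB replicate 2, at log2 differences of 1.04 and 1.09. ABCB8, of the inner mitochondrial membrane, was 1.65-fold lower (adjusted p = 0.0042). By these probes neither gene overlapped between the lines, and neither difference reached 2-fold. A second ABCB8 probe overlapped, with a log2 difference of -0.14 (adjusted p = 0.63 over all probes). ABCB9, a lysosomal peptide transporter, was 1.65-fold lower by its representative probe (adjusted p = 0.051) and 3.84-fold lower by its ENST00000537276 probe (adjusted p = 0.0035 over all probes), which was well above background on 1 pLB array.

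In subfamily D, ABCD3 and ABCD4 had no call and ABCD2 was not tested. ABCD3, an abundant peroxisomal membrane protein, read -1.96, -2.24 and -2.18 in pLUM and -2.45, -2.34 and -1.54 in pLB, an overlap with a log2 difference of 0.02 (adjusted p = 0.96 in limma). ABCD4, which takes part in the release of cobalamin from lysosomes, read 2.83, 2.85 and 2.72 in pLUM and 1.84, 1.97 and 2.24 in pLB. It was 1.72-fold lower without overlap (adjusted p = 0.0053), and its other probe lies on the opposite strand.

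Among the soluble members ABCF3 was lower and ABCE1, ABCF1 and ABCF2 had no call. ABCF3, a relative of the yeast translation regulator GCN20, read 4.17, 4.07 and 4.35 in pLUM and 3.02, 2.94 and 2.71 in pLB. These tight groups were 2.47-fold apart (adjusted p = 0.00043 in limma). ABCE1, which recycles ribosomes, had 1 probe with a log2 difference of -0.29 and 1 with 0.41, and both overlapped between the lines. ABCF1, which aids translation initiation, was 1.47-fold higher (adjusted p = 0.054), and ABCF2 was 1.25-fold higher (adjusted p = 0.36) by a probe that RefSeq also lists for the readthrough gene ABCF2-H2BK1. Both overlapped.

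**Figure D4:**
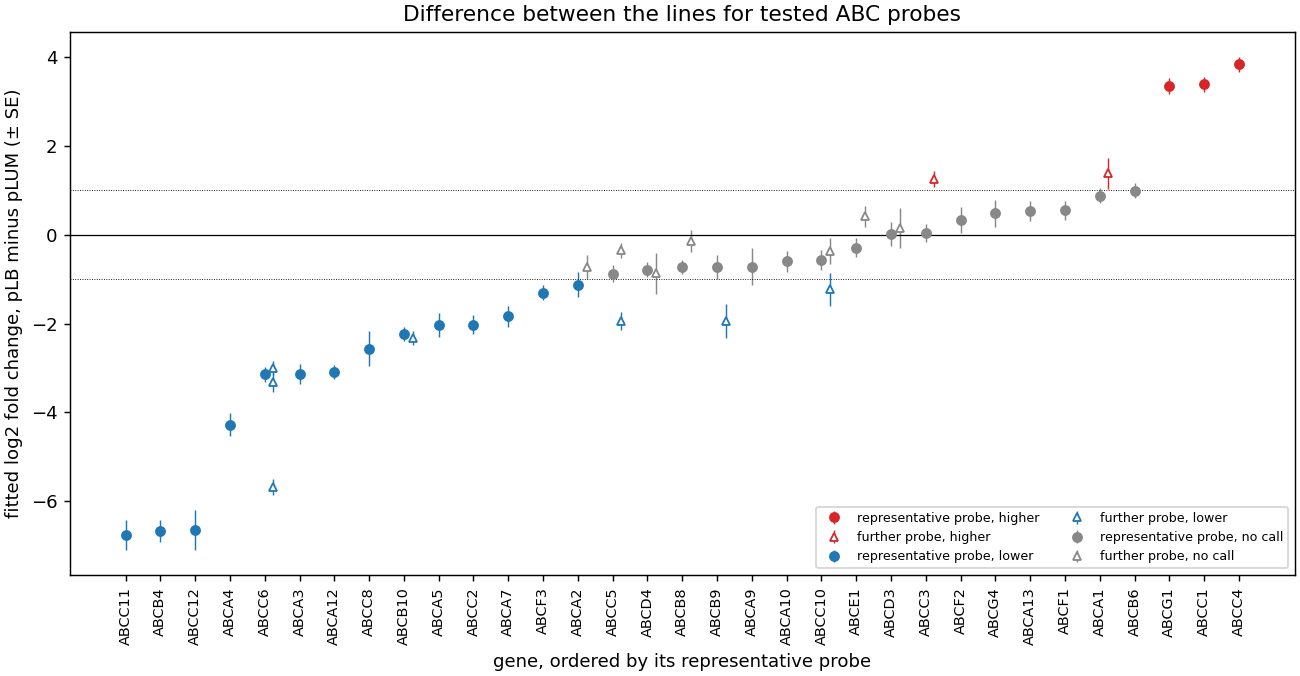
The fitted log2 difference (pLB minus pLUM, ± SE from limma) is plotted for the tested probes of the ABC genes named in the text, with genes ordered by their representative probe (filled circles; open triangles are further probes) and dotted lines at 2-fold. Red probes are called higher, blue lower and grey have no call. Fitted values of ABCC4, ABCB4, ABCC12, ABCA4 and ABCC8 rest on a line with no array well above background, and their bounds in the text are smaller.

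Of the 45 genes, 19 had more than 1 probe and 13 had more than 1 tested probe. No gene had a probe called higher and another called lower. The probes of ABCC6 spanned 2.68 on the log2 scale, those of ABCC5 1.58, those of ABCB9 1.22 and those of ABCC3 1.21. Those of ABCB10 and ABCD4 spanned under 0.1, but the ABCD4 probes lie on opposite strands. Which transcripts each probe catches was not tested.

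The size of the differences depended on how background was treated and on the scaling. With normexp the median over all genes moved to -0.21, and the log2 differences of the genes furthest apart shrank. They were then -4.12 for ABCC11, -3.21 for ABCC12, -2.80 for ABCB4, -1.54 for ABCA4, 2.23 for ABCC1 and 2.18 for ABCG1, all still called. The values of ABCB4, ABCC12 and ABCA4 were smaller in size than their bounds, which are -4.42, -5.13 and -2.49 on the log2 scale. So were those of ABCC8, at -1.17 against -2.01, and ABCC4, at 0.22 against 1.52. Scaling on spike-in probes moved the median log2 difference over all genes from 0.04 to 0.30 and the higher share of called genes from 49.7% to 60.1%. The ABC genes were then split into 6 higher and 13 lower, with ABCA1 and ABCB6 among those added to the higher genes and ABCA2 and ABCF3 lost from the lower ones. With slide as a block, which leaves pLB replicate 1 against the 3 pLUM arrays, 4 were higher and 16 lower. ABCB6 became higher (1.13), ABCA9 (-1.48) and ABCC5 (-1.10) became lower, and ABCA2 (-0.92) lost its call.

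**Figure D5:**
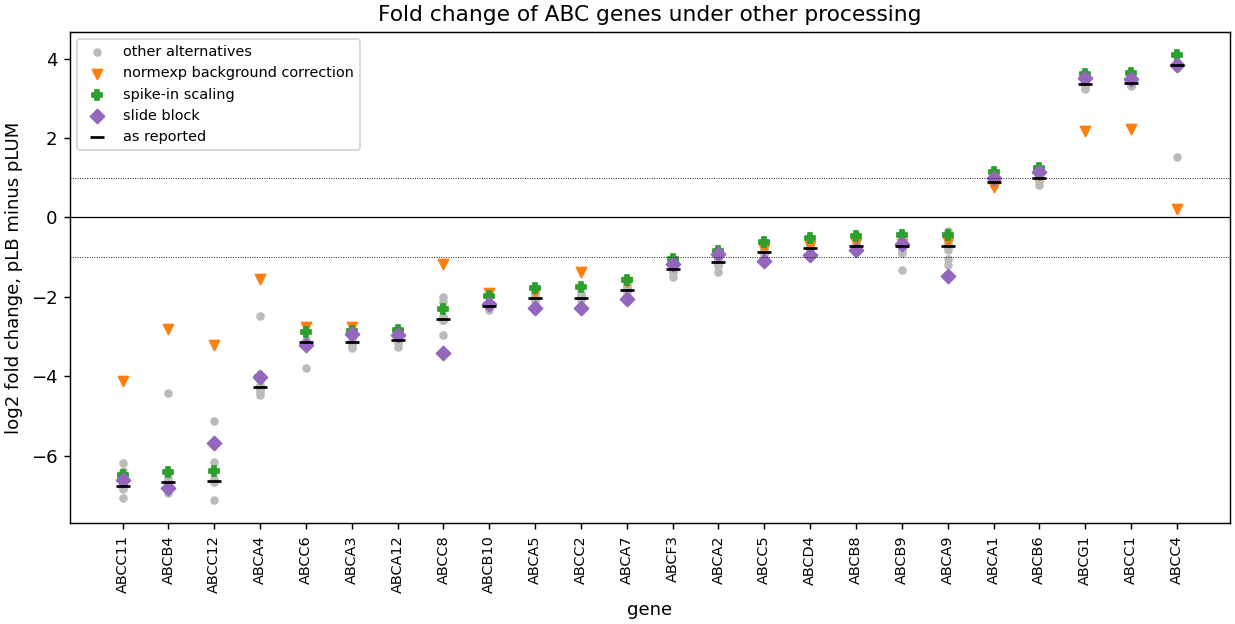
Log2 differences (pLB minus pLUM) of the named ABC genes called in the reported comparison or whose call changed under at least 1 alternative are shown as reported (black dash) and under each alternative (grey points, with normexp, spike-in scaling and slide as a block marked by symbol and colour). Dotted lines mark 2-fold. Normexp moves the dimmest genes toward 0, ABCC4 to 0.22, and no gene shown crosses 0.

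Genes that work with ABC proteins were examined as a list of 67, of which 51 were tested, 13 were higher and 11 were lower in pLB, beside the 22.7% and 23% over all genes. Among 9 genes of sterol handling, the apolipoprotein genes APOE and APOC1 were 4.32-fold and 6.75-fold higher, and NPC2, which moves cholesterol out of lysosomes, was 2.77-fold higher. LCAT, which esterifies cholesterol on lipoproteins, and MYLIP, a ubiquitin ligase gene driven by oxysterols, were 2.48-fold and 2.73-fold lower. APOA1 and SCARB1 had no call.

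Of 11 tested transcription factors known to regulate ABC genes, AHR, the aryl hydrocarbon receptor, was 17.2-fold higher and PPARG at least 6.01-fold higher in pLB. The liver X receptor gene NR1H3, which encodes a sensor of oxysterols that drives ABCA1 and ABCG1, was 2.47-fold lower, and NR1I3 was 3.92-fold lower. NR1H2 had no call, with a log2 difference of 0.36 and an overlap between lines.

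Organic anion carriers of the SLCO family take up many of the compounds that subfamily C exports. Of 5 tested, SLCO2A1 was 17.4-fold, SLCO4A1 13.0-fold, SLCO3A1 2.37-fold and SLCO1A2 at least 5.00-fold higher, and SLCO1B1 was 2.82-fold lower. The peroxisomal genes PEX3 and ACAA1 were 4.13-fold and 5.17-fold lower, and PEX19, HSD17B4 and EHHADH had no call. In the list for iron-sulfur clusters and haem, ALAS1 was 2.30-fold higher whereas FECH and NFS1 were 2.45-fold and 2.31-fold lower.

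Of 7 tested genes of ribosome rescue and initiation, PELO alone was called, at 3.66-fold higher. Among 4 tested partners of ABCA12 in the skin lipid pathway UGCG, which makes glucosylceramide, was 3.63-fold lower. The peptide transporter genes TAP1 and TAP2, which are ABC proteins under other symbols, had log2 differences of 0.03 and 0.07 with overlap between lines. CFTR was not tested. MVP, the major vault protein, had a difference of 0.18 and no call.

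Promoter entries were matched for 34 of the 45 genes, as 48 sequences of 250 bases before to 50 after a start. Only the 250 bases before the start were read for GC content and motifs in these entries. The median GC content was 61.2% over these, 66.8% over the entries of the lower genes, 61.6% over those with no call and 46.4% over those of genes that were not tested, against 58% over all. Motifs were searched on both strands, and none of them contains another. The GC box, spelled GGGCGG, was present in 47.9% of the ABC entries and in 42.6% of all entries. The TATA box, searched as TATAAA, was found in 12.5% of the family and 10.7% of all. For the AP-1 motif, written TGANTCA with any base at N, the shares were 10.4% and 6.57%. An E-box of the letters CACGTG was in 14.6% of ABC entries against 6.34% over all. By call, the E-box was in 1 of 18 entries of lower genes and 6 of 20 of genes with no call. The GC box was in 7 of 18 and 14 of 20. The nuclear receptor motif AGGTCA was the one with a lower share in the family, at 2.08%, or 1 entry, against 12.1%. Of the higher genes ABCC4 alone had an entry, with a GC content of 80.4% and none of these motifs. These are counts of letters and not of bound sites. Genes without an entry included ABCA4, ABCA8, ABCB4, ABCB5, ABCC1, ABCC3, ABCC8, ABCC13 and ABCG1.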

How the data were processed

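The authors deposited the Agilent Feature Extraction 10.10.1.1 output of each 1-colour array, which gives each spot a linear intensity that was corrected for background and not normalized between arrays. From these deposited intensities, log2 values relative to each array's 75th percentile (449 to 869) were computed, outlier spots (296 to 387 per array) were dropped, and replicate spots of 1 probe were averaged. No spot was saturated, and 21285 to 22775 probes per array were well above background. limma 3.58.1 in R 4.3.3 compared pLB with pLUM over all tested probes or representative probes, with Benjamini-Hochberg adjustment. The fit was tested on simulated data, and the outcome of that test is not reported here. Gene names and hg19 positions are those of the files, and promoters and neighbours come from RefSeq on GRCh38.p14. The genes named by rule are the members and the listed partner and marker genes, of which some are not reported here by name but enter the counts. Members, lists and tests were chosen with earlier results of these data known. Replicate numbers were not used as pairs, since deviations of same-numbered arrays correlated at -0.27, -0.09 and -0.22.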

Additional observations from a re-analysis of the deposited data

How the results depend on the processing

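Of the 35 tested ABC genes 24 kept their call under every alternative that tested them and 11 changed it under at least 1, and none reversed. The 5 ABC probes called higher became 3 with normexp, 8 with spike-in scaling and 8 without a fold threshold, and the 23 called lower became 15 where a signal well above background was required on all 6 arrays. That filter tested 28 of the ABC genes, of which 2 were higher and 10 lower, and left out ABCA4, ABCB4, ABCC4, ABCC8, ABCC11, ABCC12 and ABCG4. The 3 higher genes became 6 with spike-in scaling and 6 without a fold threshold. The 13 higher partner genes became 8 with normexp and 21 without a fold threshold. Spike-in scaling was added after seeing the data. With the replicate number as a block, 3 ABC genes were higher and 15 lower, the same counts as without it. Leaving out 1 array gave 3 to 4 higher and 14 to 16 lower genes. Signals near background limit ABCC4 and the genes given as bounds. The cause of these shifts was not tested.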
